A study of Mus musculus with 310 samples.

Results

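Krt79, Krt17 and Krt6a are 3 of the 32 keratin genes, and of 14068 genes in all, in a table of single Lrig1-lineage keratinocytes from mouse tail epidermis, and they were taken by name. Their values were read in each of 310 cells, on each of 5 plates and in both groups, together with how often they were found in the same cell. The cells carry the label 38w (145 cells, replicates RepI and RepL) or 38wUW (165 cells, replicates RepM and RepN), after a time tag of 38 weeks. All came from CBA C57BL/6 mixed strain mice with a Lrig1-EGFP-ires-CreERT2 allele and a Rosa26 tdTomato reporter behind a stop cassette, given hydroxytamoxifen on the tail, and were sorted for tomato, so both groups are meant to hold cells that used the Lrig1 promoter and their descendants. The labels do not say what UW stands for or which group was wounded, and each difference below is 38w minus or over 38wUW. The labels do not say how many mice stand behind each replicate.

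Keratins build the intermediate filaments of epithelial cells from pairs of a type I and a type II chain, and the pair changes with the place and state of the cell. KRT79 is a type II chain of the cells that line the opening of the hair follicle (HF), the infundibulum (INFU), and the duct of the sebaceous gland, and it appears where the follicle canal first opens. KRT17 is a type I chain of the follicle's outer layers and of the gland. KRT6A is a type II chain of the companion layer and inner bulge, and both KRT6A and KRT17 are made by interfollicular epidermis after injury or stress, when KRT16 and KRT17 are the usual partners of KRT6A.

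On GRCm38 (GENCODE M21) the 3 genes are protein-coding and on the minus strand. Krt79 (ENSMUSG00000061397) lies at chr15:101929332-101940324 with 9 exons, Krt6a (ENSMUSG00000058354) at chr15:101689910-101694307 with 9 exons, and Krt17 (ENSMUSG00000035557) at chr11:100256217-100261029 with 8 exons. Sequence decides how far their reads can be told from those of other keratins. Of the windows of 75 bases, the read length, along the main transcript, 0 of 2023 of Krt79 and 0 of 1477 of Krt17 were found unaltered in a transcript of another gene. For Krt6a it was 932 of 2204 windows (42.3%), and 797 (36.2%) occurred in Krt6b, its neighbour at chr15:101676023-101680287. Of the 2204 windows, 142 (6.44%) occurred in Gm5478, 100 (4.54%) in Krt5 and 31 (1.41%) in Gm5414. The coding sequences of Krt6a and Krt6b were 97.8% identical, with 37 differences over 1659 aligned bases, against 78.0% for Krt6a and Krt79.

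A stretch of each kind shows what a read can and cannot tell. The first 75-base coding window without a difference lies in exon 1 of both genes (Krt6a at chr15:101694141-101694215, Krt6b at chr15:101680116-101680190) and reads the same in both. The window with the most differences, 12 of 75 bases, lies in exon 4 (Krt6a at chr15:101692484-101692558, Krt6b at chr15:101678303-101678377). All are coding, written 5′ to 3′ along the minus strand, and capitals mark the bases that differ.
Krt6a and Krt6b, exon 1: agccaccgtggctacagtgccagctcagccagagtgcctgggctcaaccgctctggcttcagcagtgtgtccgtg
Krt6a, exon 4: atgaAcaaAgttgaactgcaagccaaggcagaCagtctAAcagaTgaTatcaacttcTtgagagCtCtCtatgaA
Krt6b, exon 4: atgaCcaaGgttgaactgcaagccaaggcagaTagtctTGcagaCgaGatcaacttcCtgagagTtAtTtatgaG
The authors' quantification divided such shared reads. It gave 7632 estimated reads in 109 cells to Krt6a and 10.1 in 7 cells to Krt6b. A Krt6a value here may therefore hold some reads of Krt6b, Krt5 or the other genes that share windows. The part that does was not tested.

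The libraries differed before any keratin was read. Cells had 11711 to 721564 reads, and the 5 plates summed to between 1719788 and 12946742. Plate C114, which holds 53 of the 70 cells of RepI, stood apart, where ribosomal protein genes took 31.6% of the reads of the median cell against 3.60% to 6.76% on the other plates, and mitochondrial genes 2.77% against 9.69% to 33.8%. The other 17 cells of RepI are on plate C118, and RepL, RepM and RepN are on C119, C128 and C129, so replicate and plate cannot be told apart for these. No cell had the values of another (0 of 310), but some wells of C114 are named by more than 1 cell, as given below. Keratinocyte identity genes were found in all 310 cells, while markers of other cells were at low levels except for Pecam1. The immune list (2 of 6 genes in the table) had a read in 29 cells and summed to 1.28 to 2.93 CPM per replicate. The fibroblast list (5 of 6 genes) had a read in 97 cells, with Lum in 66, Dcn in 22 and Pdgfra in 6, and summed to 8.42 to 62.7 CPM, highest in RepI. The melanocyte list (2 of 4 genes) had a read in 103 cells, with Dct in 91, and summed to 7.11 to 15.1 CPM. Of the endothelial genes, Kdr was found in 8 cells and Pecam1 in all 310. The part of such cells or RNA in the values below was not tested.

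Among the 32 keratins, Krt79 ranked 3rd by reads with 84922, Krt17 5th with 62821 and Krt6a 11th. Levels of different genes are compared as CPM (counts per 1000000 reads of the replicate) per kilobase of main transcript. Krt79 was at 1700 for RepI, 301 for RepL, 1980 for RepM and 879 for RepN. Krt17 was at 2494, 353, 1665 and 394 CPM per kilobase in the same order, and Krt6a at 107, 116, 57.8 and 102. In each of the 4 replicates Krt6a was the lowest of the 3, and over the replicates it stood at 95.6 ± 25.8 CPM per kilobase (SD, n = 4) against 1215 ± 768 for Krt79 and 1226 ± 1042 for Krt17. Krt79 and Krt17 were both high in RepI and RepM and lowest in RepL, while Krt6a lay between 57.8 and 116. On the same scale the basal keratin pair was at 3957 ± 5152 for Krt14 and 432 ± 337 for Krt5, and the bulge keratin Krt15 was at 372 ± 42.9. The stress keratin Krt16, the other usual partner of KRT6A, was at 56.0 ± 49.8, and the companion layer keratin Krt75 at 0.937 ± 1.65, with 72 reads in all.

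Krt79 was a gene of few cells at very high level. It had reads in 21 of 53 cells on C114, 3 of 17 on C118, 21 of 75 on C119, 31 of 82 on C128 and 42 of 83 on C129. In cells with a read the level ran from 1.93 to 56750 CPM with a median of 2422, and 71 cells were above 1000 CPM. The highest 5 cells of a replicate held 89.6% of its Krt79 reads in RepI, 77.1% for RepL, 50.9% for RepM and 61.5% for RepN. A summed level of Krt79 therefore rests on few cells, most of all in RepI, where the 5 were among 24 cells with a read.

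Krt17 was found more widely. It had reads in 43 of 53 cells on C114, 6 of 17 on C118, 29 of 75 on C119, 60 of 82 on C128 and 53 of 83 on C129, 191 of the 310 in all. Most of these cells held little, since the median of cells with a read was 337 CPM while the highest reached 94109. The 5 highest cells again held much of the total, from 49.8% of the Krt17 reads of RepM to 83.9% of those of RepI.

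Krt6a was found in about as many cells as Krt79, but at a lower level. Reads were present in 24 of 53 cells on C114, 4 of 17 on C118, 22 of 75 on C119, 26 of 82 on C128 and 33 of 83 on C129. Its median in these 109 cells was 215 CPM and its highest value 5877, and 19 cells were above 1000 CPM, 11 of 38w and 8 of 38wUW. With each cell thinned to 20000 reads, 46 cells had 100 or more reads of Krt79 and 30 had as many of Krt17, but 0 of 277 had as many of Krt6a, which allows a share of up to 1.08%.

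**Figure D1:**
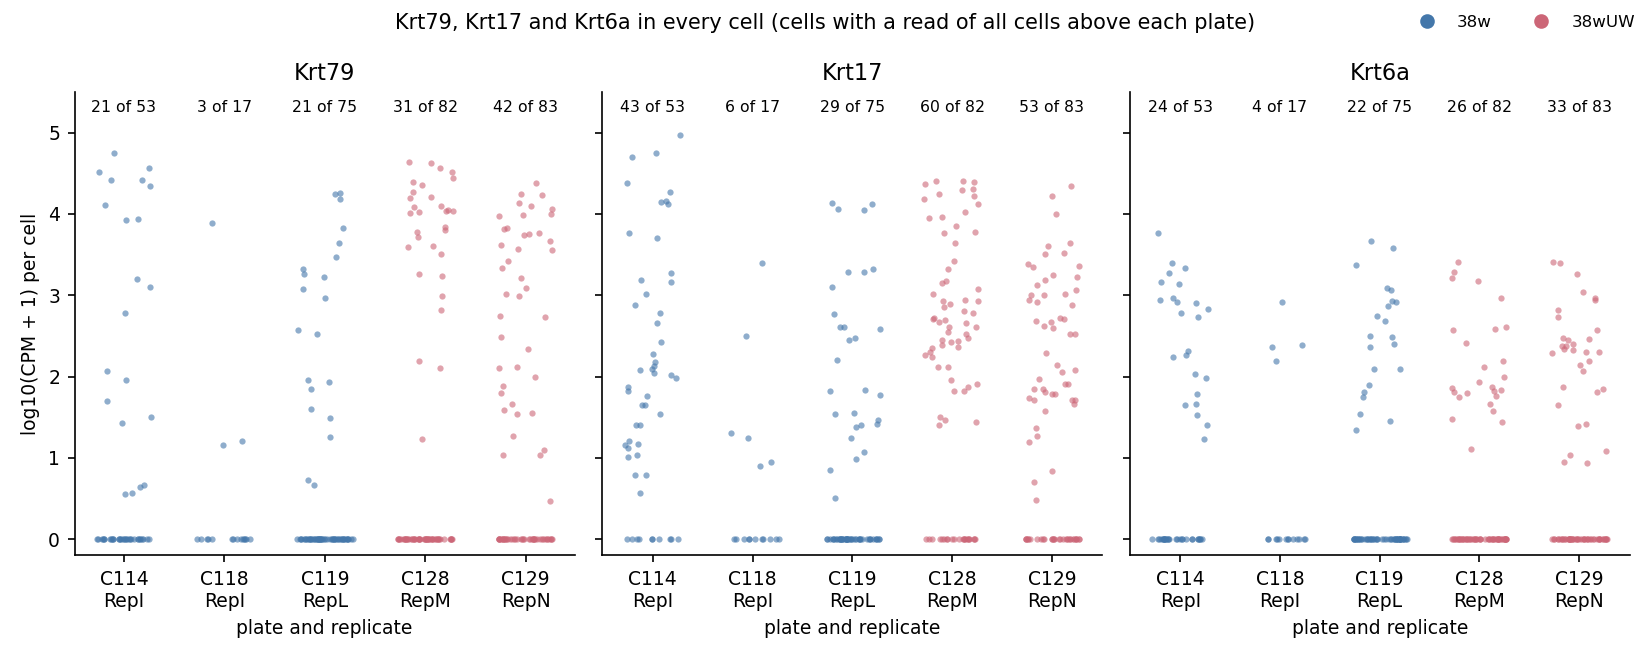
Level of each keratin in each of the 310 cells, as log10(CPM + 1), by plate with its replicate; each point is 1 cell, blue for 38w and red for 38wUW, and the number of cells with a read stands above each plate. Krt79 and Krt17 reach above 10000 CPM on several plates, the highest Krt6a cell is at 5877 CPM, and on C118 few cells have a read of any of the 3.

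To compare how often the genes were found, the thinned cells were used, since more deeply read cells show more genes. Thinning kept 277 cells, 138 of 38w and 139 of 38wUW. A read of Krt79 was found in 23.5% of cells in RepI (Wilson 95% interval 15 to 34.9) and 27.1% for RepL (18.1 to 38.5), against 43.8% for RepM (32.3 to 55.9) and 44% for RepN (33.3 to 55.3). The groups did not overlap: 25.3% ± 2.56 of 38w cells and 43.9% ± 0.177 of 38wUW cells had Krt79 (SD, n = 2 each), a difference of -18.5 percentage points (exact permutation of the 4 replicates, two-sided p = 0.333, the smallest that the 6 splits allow). Both 38w replicates were below both 38wUW replicates in 31.0% of the 13927 genes with a read in a thinned cell, and both above in 9.99%, so the order itself was common.

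Krt17 followed the same order after thinning. A read was found in 45.6% of cells in RepI, 28.6% for RepL, 71.9% for RepM and 57.3% for RepN, so 37.1% ± 12 of 38w cells and 64.6% ± 10.3 of 38wUW cells (SD, n = 2 each) had Krt17, a difference of -27.5 points (exact permutation p = 0.333). Without thinning the replicates overlapped, with 70.0% for RepI against 63.9% for RepN and a difference of -14.2 points (exact permutation p = 0.667). For Krt79 the unthinned difference was -13.1 points and the replicates stayed apart.

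Krt6a showed no such order. Its thinned shares were 33.8% for RepI, 25.7% for RepL, 31.2% for RepM and 32.0% for RepN, and the group means of 29.8% ± 5.73 and 31.6% ± 0.530 (SD, n = 2 each) differed by -1.86 points, less than the spread within 38w (exact permutation p = 1.0). RepI was the highest and RepL the lowest of the 4. The sign was 4.21 points with cells thinned to 10000 reads and 5.42 points when at least 5 thinned reads were asked for, so no direction can be given.

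Of the plates of RepI, C114 had the higher share of all 3. On C114 the thinned shares were 29.4% for Krt79, 54.9% for Krt17 and 37.3% for Krt6a, and on C118, of the same replicate, 5.88% (1 of 17 cells), 17.6% and 23.5%. Without C114 the differences between the groups were larger in size, at -27.4 points for Krt79, -41.5 for Krt17 and -7.00 for Krt6a. Within the batch tag of the labels, C114 is set against C128, where Krt79 was at 29.4% and 43.8%, Krt17 at 54.9% and 71.9% and Krt6a at 37.3% and 31.2%. The other batch holds C118 and C119 with C129, and there Krt79 was at 5.88% and 27.1% against 44%, Krt17 at 17.6% and 28.6% against 57.3%, and Krt6a at 23.5% and 25.7% against 32.0%. The alternative batch tag swaps C129 for C128 in these pairs. With each tag the 38w plates were below the 38wUW plate of their batch for Krt79 and Krt17, by least for Krt17 on C114 against C129 (54.9% and 57.3%), and Krt6a had no common order.

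**Figure D2:**
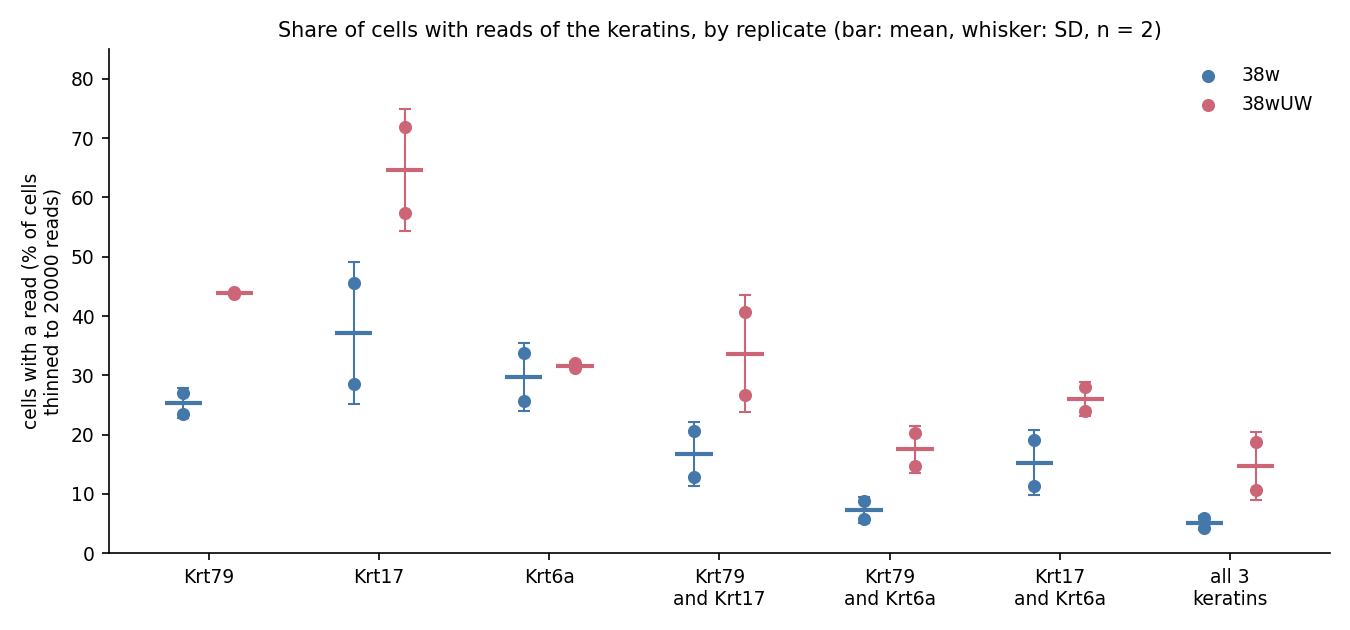
Share of thinned cells with a read of each keratin and of each combination, in percent, blue for 38w and red for 38wUW; each point is 1 replicate, the bar is the mean and the whisker the SD (n = 2). For Krt79 and Krt17 and for the 4 combinations both 38w points lie below both 38wUW points, and for Krt6a they overlap.

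The summed level told less than the share. Krt79 stood at 3566 CPM in RepI and 630 for RepL against 4152 for RepM and 1843 for RepN, which overlap. The edgeR quasi-likelihood test on these sums put it at -0.26 on the log2 scale (SE 1.20; adjusted p = 0.960), and called 0 of 11760 genes (0%), with 949 at an unadjusted p under 0.05 and a median log2 fold change of 0.12 over all genes. DESeq2 called 68 genes (0.578%), none of them Krt79, Krt17 or Krt6a. Krt79 was at -2.02 without RepI and -2.57 without plate C114, but at 0.59 without RepL and 0.47 without RepM, so the direction depended on the replicate left out.

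Krt17 was at 3868 CPM in RepI, 547 for RepL, 2582 for RepM and 610 for RepN, and each group had a high and a low replicate. Its log2 fold change was 0.72 with an SE of 1.23 (edgeR adjusted p = 0.881), and turned to -1.32 without RepI and -1.36 without C114, and was 1.61 without RepL and 2.14 without RepM. The sum and the share of Krt17 thus had opposite signs, and 85.9% of the Krt17 reads of C114 were in 5 cells. A sum alone does not tell the number of positive cells from the level per positive cell, so the shares are given apart above.

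Krt6a was at 243 CPM in RepI and 264 for RepL, above 132 for RepM and 233 for RepN, which gave 0.72 on the log2 scale (SE 0.86; edgeR adjusted p = 0.830). Both 38w replicates were above both 38wUW replicates in 12.6% of the tested genes and below in 26.2%. The sign held under all 16 alternatives, from 0.39 to 1.18, and none of them called it. Within 38wUW, RepN was nearer to both 38w replicates than to RepM.

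**Figure D3:**
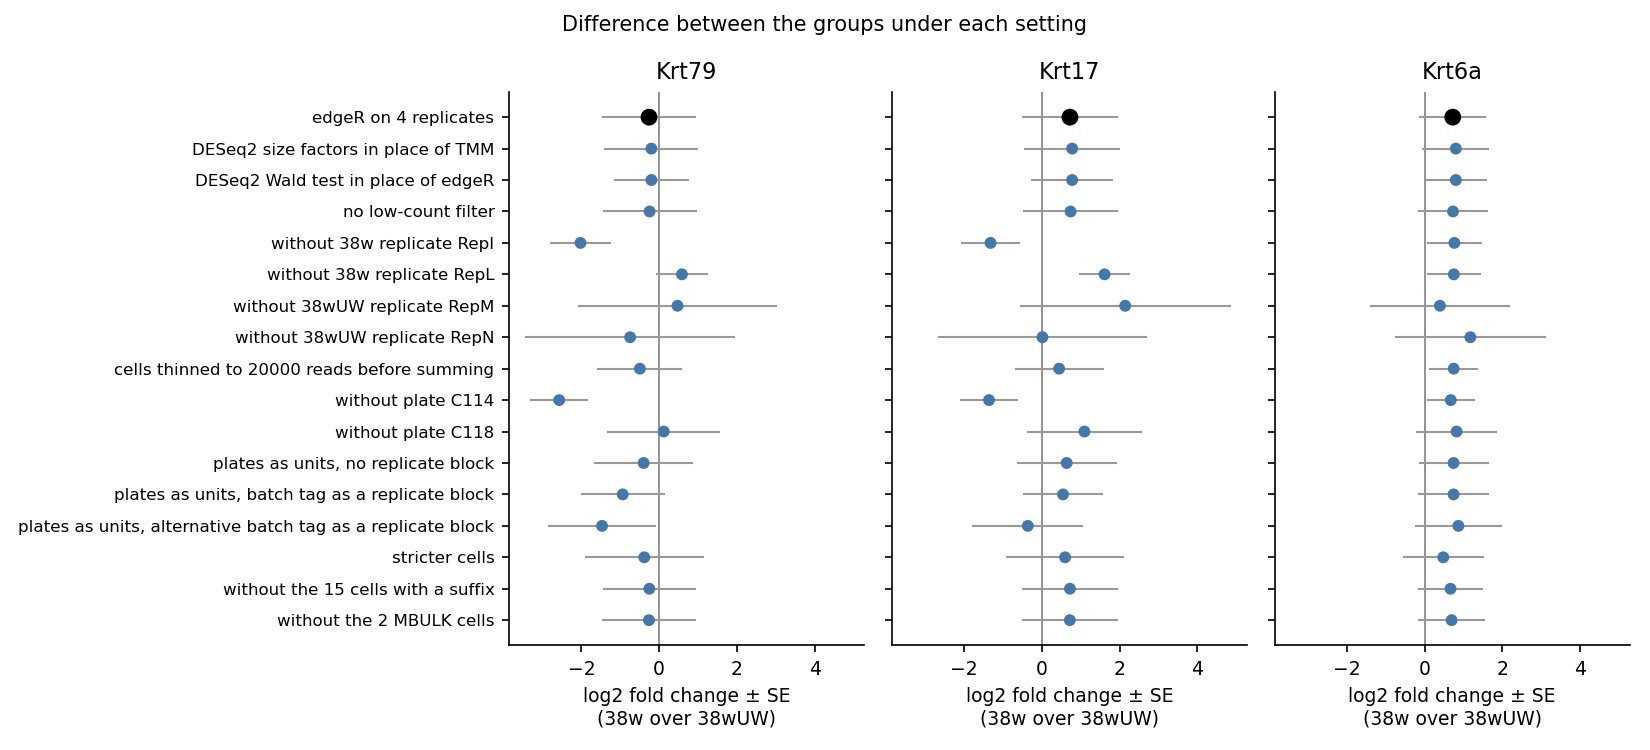
Log2 fold change of each keratin, 38w over 38wUW, with its SE, by edgeR on the summed reads of 4 replicates (black) and under each of 16 other settings (blue). Krt79 is above 0 without RepL, RepM or plate C118, Krt17 is below 0 without RepI, without plate C114 and with the alternative batch tag as a block, and Krt6a lies between 0.39 and 1.18.

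The other keratins and the genes tied to these 3 were counted as whole lists. Of 32 keratins 22 could be tested and edgeR called 0, with 5 higher and 1 lower at an unadjusted p under 0.05 and a median log2 fold change of 0.55. DESeq2 called 4 of them higher in 38w, which were Krt14, Krt24, Krt36 and Krt84, the last 3 named here after their values were seen. Among the partners, Krt14 was at 3.46 (SE 1.47; edgeR adjusted p = 0.617) and Krt5 at 2.08 (SE 1.04; adjusted p = 0.634), and both lay higher in RepI and RepL than in RepM and RepN. For Krt14 the level of RepI came mostly from plate C114 (23571 CPM), and plate C118 of the same replicate (1204 CPM) was below RepM (1808 CPM). Krt15 was at 0.39 (adjusted p = 0.921) and Krt16 at -0.39 (adjusted p = 0.928).

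The stress and wound response list, which holds genes that keratinocytes make after injury, had 13 of 20 genes tested and 0 called by edgeR. Of these, 5 were above and 8 below 0, with a median log2 fold change of -0.54, 2 lower at an unadjusted p under 0.05 and 1 called lower by DESeq2 (Ereg, which encodes epiregulin, named after its value was seen). The regulators known to act on these keratins, which include GATA6 in the duct and infundibulum, NRF2 (Nfe2l2), STAT3, the GLI factors and p63 (Trp63), had 13 of 14 tested and 0 called, with 5 above and 8 below 0, a median of -0.71 and 1 lower at an unadjusted p under 0.05. The linkers and interactors of keratin filaments, among them plectin and desmoplakin, had 9 of 10 tested and 0 called, with 5 above and 4 below 0 and a median of 0.26. The median of all genes tested was 0.12, as given above.

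Joint detection set the 3 genes apart from each other. Of the 277 thinned cells, 89 (32.1%) had a read of none. Krt79 and Krt17 without Krt6a were found in 42 cells, Krt17 alone in 41, Krt17 with Krt6a in 30, all 3 in 27, Krt6a alone in 21, Krt79 alone in 20 and Krt79 with Krt6a in 7. The rarest combination was thus Krt79 with Krt6a and no Krt17, at 2.53% of cells (Wilson 95% interval 1.23 to 5.12).

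Krt79 and Krt17 went together. Of the cells with Krt79, 71.9% also had Krt17, against 39.2% of cells without Krt79. By replicate these shares were 87.5% against 32.7% for RepI, 47.4% against 21.6% for RepL and 92.9% against 55.6% for RepM. In RepN they were 60.6% against 54.8%, so the gap was smallest there, and Krt79 was found without Krt17 in 13 of its 33 cells with Krt79. Across cells the Spearman correlation of the thinned levels was 0.66 for RepI, 0.35 for RepL, 0.74 for RepM and 0.33 for RepN, as a description of cells that share a library.

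Cells with Krt6a more often had Krt17 than cells without it. Of cells with Krt6a, 67.1% had Krt17, against 43.2% of cells without it, and the share was higher in each of the 4 replicates (56.5% against 40.0% for RepI, 44.4% against 23.1% for RepL, 90% against 63.6% for RepM and 75.0% against 49.0% for RepN). For Krt79 the shares were 40.0% and 32.3% over all cells. They were 26.1% and 22.2% for RepI, 22.2% and 28.8% for RepL, 65% and 34.1% for RepM, and 45.8% and 43.1% for RepN, so the gap was wide in RepM, small in RepI and RepN and of the opposite sign in RepL. Krt16 was found in 22.4% of cells with Krt6a and 11.5% of cells without, but in RepN in 0 of 24 cells with Krt6a, which allows a share of up to 12.5%.

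A type II chain needs a type I chain, and nearly all cells had one. Of 85 thinned cells with Krt6a, 84 had a read of Krt14, Krt16 or Krt17, and of 96 with Krt79, 95 did, but so did 92.2% of cells without Krt6a and 91.7% of cells without Krt79. Krt14, the type I keratin of basal cells, was in 88.2% of cells with Krt6a and 87.0% of those without, and in 93.8% of cells with Krt79 and 84.0% of those without.

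**Figure D4:**
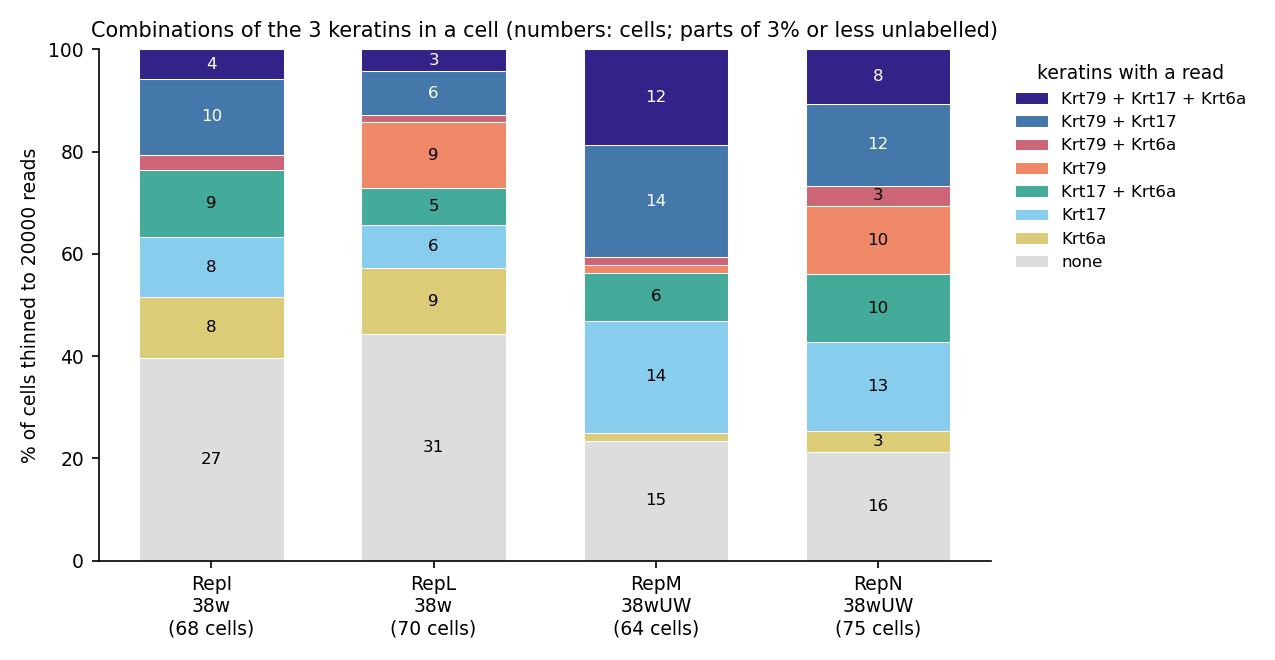
Thinned cells of each replicate divided by which of the 3 keratins had a read, as percent of cells with the number of cells written in; the dark parts at the top are cells with Krt79 and Krt17. Cells with none are 27 and 31 in the 38w replicates and 15 and 16 in the 38wUW replicates, and cells with all 3 are 4 and 3 against 12 and 8.

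Each combination was found in a smaller share of cells in both 38w replicates than in either 38wUW replicate. These shares are not independent of those of the single genes given above. How common this order is among other combinations of genes was not counted. Krt79 with Krt17 was found in 20.6% of cells in RepI and 12.9% for RepL against 40.6% for RepM and 26.7% for RepN, a difference of -16.9 points between 16.7% ± 5.47 and 33.6% ± 9.87 (SD, n = 2 each; exact permutation p = 0.333). Krt79 with Krt6a was at 7.27% ± 2.20 and 17.5% ± 3.99, and Krt17 with Krt6a at 15.3% ± 5.44 and 26.1% ± 2.92 (n = 2 each; exact permutation p = 0.333 for both). All 3 together were in 5.88% of cells in RepI, 4.29% for RepL, 18.8% for RepM and 10.7% for RepN, or 5.08% ± 1.13 against 14.7% ± 5.72 (SD, n = 2 each; exact permutation p = 0.333). Without thinning the replicates of Krt17 with Krt6a overlapped, and those of the other 3 combinations did not. Without RepM the difference was -9.94 points for Krt79 with Krt17 and -5.58 for all 3, and with at least 5 thinned reads of each gene it was -3.74 for Krt79 with Krt6a and -3.79 for all 3.

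The amount of Krt79 in a cell went with its other keratins. Cells with 100 or more thinned reads of Krt79 (46 cells) had Krt17 in 95.7%, with a median of 180 reads, and Krt5, the type II keratin of basal cells, in 10.9%. The 25 cells with 1 to 9 reads of Krt79 had Krt17 in 40.0% and Krt5 in 84.0%, close to the 39.2% and 83.4% of the 181 cells with no Krt79. Low Krt79 was thus found in cells whose Krt5 and Krt17 resembled those of cells without it, while high Krt79 was found mostly in cells without Krt5. By replicate, Krt5 was found in 20%, 0%, 5.26% and 15.4% of the cells with 100 or more reads in RepI, RepL, RepM and RepN (10, 4, 19 and 13 cells), against 78.8% to 86.3% of cells without Krt79. From no Krt79 reads to 100 or more, over these steps and that of 10 to 99 reads, Krt15 was found in 63.0%, 60.0%, 40.0% and 23.9% of cells and Krt14 in 84.0%, 92.0%, 92.0% and 95.7%.

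Krt17 showed a different course. The 65 cells with 1 to 9 thinned reads of Krt17 had Krt15 in 84.6% and Krt79 in 23.1%, whereas the 30 cells with 100 or more had Krt15 in 13.3%, Krt79 in 96.7% and Krt5 in 3.33%. The 137 cells with no Krt17 had Krt15 in 48.9%. The bulge and basal keratin Krt15 was thus found most often in cells with low Krt17, and Krt79 in cells with high Krt17. Krt14 and Krt5 were each in 89.2% of the cells with 1 to 9 reads of Krt17. In cells with no Krt17 they were in 87.6% and 73.7%. For Krt6a, cells with 10 to 99 reads (34 cells) had Krt17 in 76.5% and Krt16 in 32.4%, against 60.8% and 15.7% of cells with 1 to 9 reads (51 cells). Krt5 was in 70.6% and 76.5% of these, and in 64.6% of the 192 cells with no Krt6a. RepM was the exception, with Krt5 in 7 of its 20 cells with Krt6a (35%), against 83.3% to 88.9% in the other replicates. In cells without Krt6a, Krt5 was in 65.9% for RepM, and in 62.2%, 71.2% and 58.8% for RepI, RepL and RepN. Krt6a and Krt5 share windows, as given above, and the part of shared reads in this joint detection was not tested.

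Cells were clustered without the 3 genes and without Krt6b, Krt16 and Krt75, so that the clusters could be read for them. Of 8 clusters, 4 could be named from markers: infundibular and duct differentiated-like (69 cells, with 11 of 11 markers raised), sebocyte-like (42, with 5 of 7), bulge-like (41, with 5 of 8) and cycling-like (14, with 6 of 6). The top 10 genes of the bulge-like cluster held 1 bulge marker, and also Postn, which the paper uses as an INFU marker. Cluster 0 came from C114 in 40 of 41 cells and stayed unnamed, with ribosomal protein genes and Mt4 among its top 10 genes, as did cluster 2 (49 cells, 34 of them from C119), cluster 5 (44 cells) and cluster 7 (10 cells). The clusters were made from the same cells, so the levels in them are a description with no test.

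Krt79 was highest in infundibular and duct differentiated-like cells, where 61 of 69 cells had a read. Their mean was 21676 CPM per cell in RepI, 10624 for RepL, 13317 for RepM and 7314 for RepN, or 13233 ± 6141 (SD, n = 4 replicates), and they held 97.1% of all Krt79 reads. Sebocyte-like cells came next among the named clusters, with reads in 24 of 42 cells and 1134, 849 and 486 CPM in RepL, RepM and RepN (823 ± 325, n = 3 replicates with 3 or more cells). In bulge-like cells 4 of 41 had a read, and the mean was 121 CPM in RepL, 11.5 for RepM and 0 for RepN. Replicates with 3 or more cells did not overlap between infundibular and sebocyte-like or between sebocyte-like and bulge-like cells, but at a coarser Leiden resolution of 0.6 the sebocyte-like replicates (382 ± 260 CPM, n = 4) reached down to 3.56 CPM and overlapped the bulge-like ones. Cluster 0 (91.9 CPM, RepI alone), bulge-like (44.2), cluster 5 (23.2), cycling-like (13.4) and cluster 2 cells (0.364) followed at resolution 1.0. The replicates of bulge-like, cluster 5 and cycling-like cells overlapped, and those of cluster 2 lay below those of cycling-like cells. Cluster 7 (1144 ± 1619 CPM, n = 2) rests on 2 cells with Krt79 of 10. At the finer resolution of 1.5 the infundibular-like name went to 18 cells, at 12028 ± 9671 CPM of Krt79 (n = 3), and an unnamed cluster of 43 cells overlapped them at 10883 ± 4648 (n = 3). There an interfollicular differentiated-like cluster of 26 cells was at 4953 ± 5765 CPM (n = 4), with Krt79 in 5 cells.

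Krt17 was also highest there, and bulge-like cells came next at resolution 1.0. Infundibular and duct differentiated-like cells had reads in 61 of 69 cells, at 24904, 8569, 8656 and 3000 CPM in RepI, RepL, RepM and RepN, and 88% of all Krt17 reads. Bulge-like cells had reads in 34 of 41, at 467 CPM in RepL, 1717 for RepM and 827 for RepN (1004 ± 643, n = 3), a range that includes the 804 CPM of cluster 0 in RepI. Sebocyte-like cells had reads in 16 of 42 but at 61.5 ± 81.9 CPM (n = 3), and no replicate of them reached the lowest bulge-like replicate. At resolution 1.5 the same unnamed cluster of 43 cells (5498 ± 3732 CPM, n = 3) and the interfollicular differentiated-like cells (4063 ± 4690, n = 4) had higher means of Krt17 than bulge-like cells (1559 ± 1225, n = 3), so the order below the first place depends on the clustering. At resolution 1.0 the mean CPM of sebocyte-like and bulge-like cells was thus mirrored, with Krt79 and little Krt17 in the former and Krt17 and little Krt79 in the latter. The shares were not mirrored in each replicate. In the sebocyte-like cells of RepM, Krt17 was found in 58.8% and Krt79 in 29.4% of cells (no thinning). Of 32 thinned sebocyte-like cells 14 had Krt79 without Krt17 and 5 had Krt17 without Krt79, and of 32 thinned bulge-like cells the numbers were 1 and 23.

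Krt6a was not gathered in a single cluster. Bulge-like cells had reads in 21 of 41 cells (51.2%), cluster 5 in 22 of 44 (50%), cluster 0 in 19 of 41 (46.3%) and infundibular and duct differentiated-like cells in 29 of 69 (42.0%). The mean was 450 ± 256 CPM in infundibular (n = 4), 235 ± 82.3 in bulge-like (n = 3) and 115 ± 90.6 in cluster 5 cells (n = 4), and the replicates of neighbours in this order overlapped. Sebocyte-like cells had reads in 5 of 42, at 15.1 ± 16.0 CPM (n = 3), below each infundibular and bulge-like replicate. They were not alone in this, with cycling-like cells at 1.74 ± 1.64 CPM (n = 3), within the range of the sebocyte-like replicates. Cluster 2 was at 93.2 ± 140 CPM (n = 3) and cluster 7 at 0 (n = 2). At resolution 0.6, however, the sebocyte-like cluster held 97 cells and Krt6a was in 28.9% of them. Of all Krt6a reads 35.8% were in infundibular, 25.4% in bulge-like, 16.0% in cluster 5 and 14.3% in cluster 0 cells, so no cluster held most of them. Of its usual partners, Krt17 was found in both places, while Krt16 was found in 28 of 69 infundibular cells and in 0 of 41 bulge-like cells, which allows a share of up to 7.32%. These are counts over all cells of a cluster, with and without Krt6a.

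**Figure D5:**
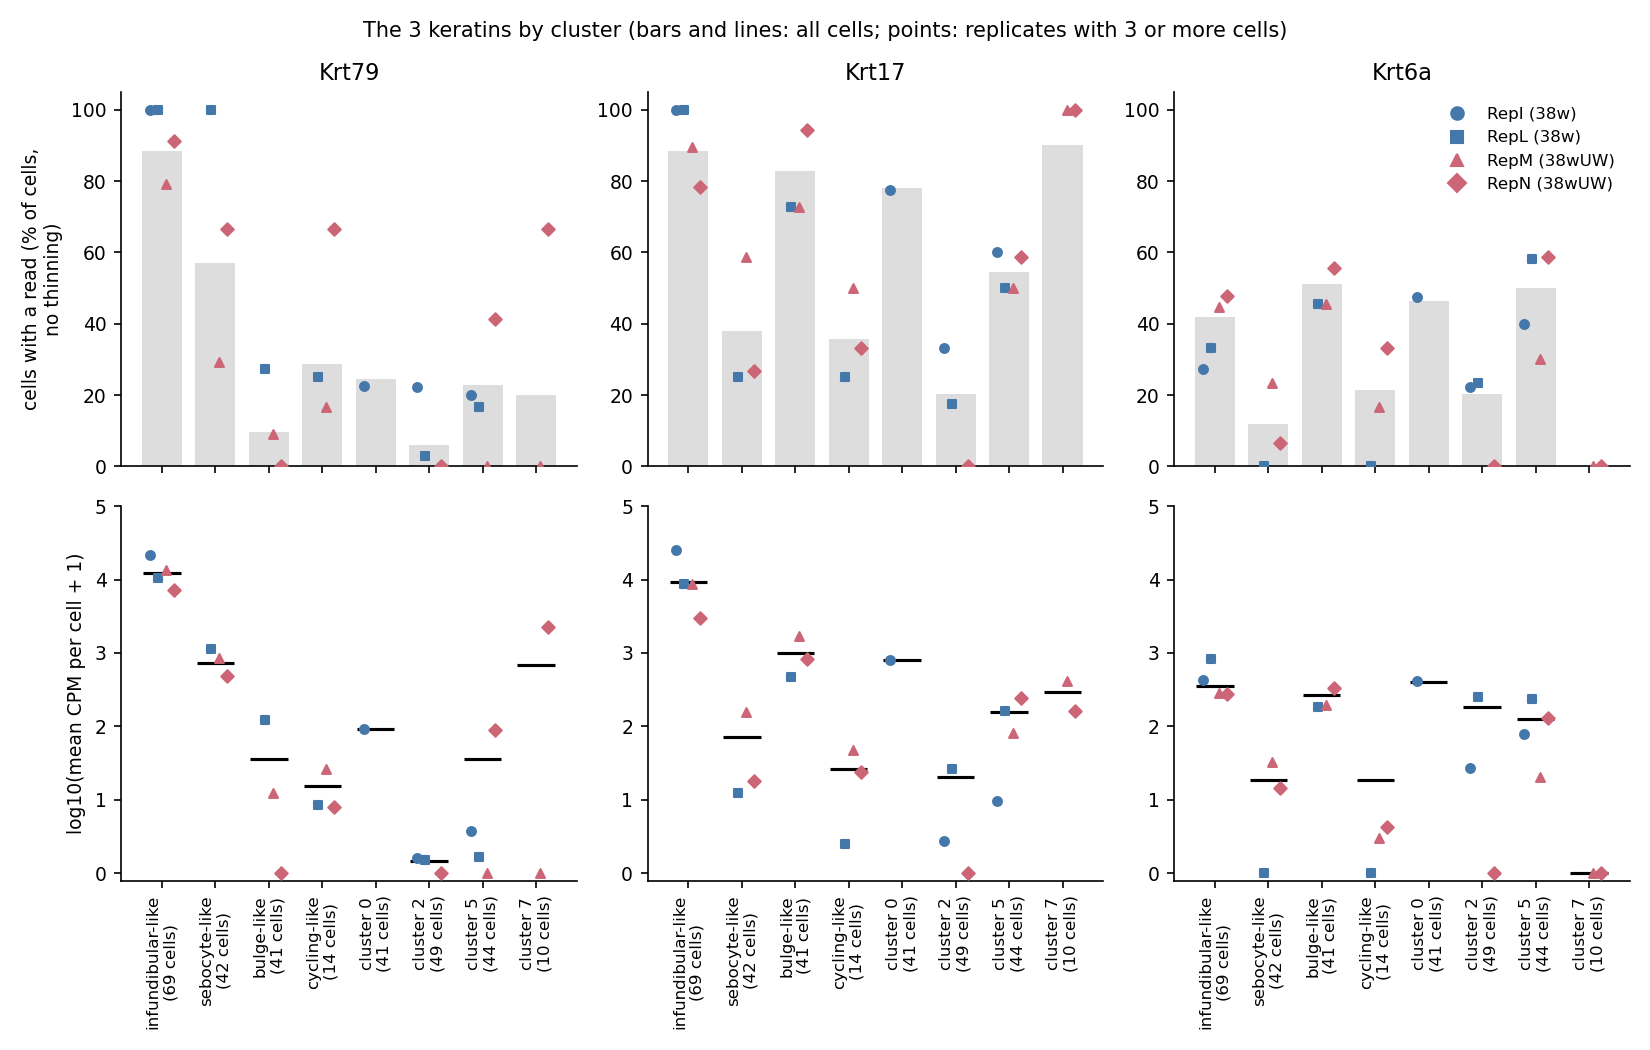
Upper row, share of cells with a read of each keratin (percent of cells, no thinning) by cluster; lower row, mean CPM per cell as log10(mean + 1). Bars and lines are all cells of a cluster, and points are replicates with 3 or more cells, blue for 38w and red for 38wUW. The mean CPM of Krt79 and Krt17 is highest in infundibular-like cells, while the share of cells with Krt17 is higher in cluster 7 (9 of 10 cells). Below these the mean CPM of the genes parts, with Krt79 in sebocyte-like and Krt17 in bulge-like cells. Krt6a is similar in several clusters and low in sebocyte-like, cycling-like and cluster 7 cells.

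Infundibular and duct differentiated-like cells made up 11 of 70 cells in RepI, 6 of 75 for RepL, 29 of 82 for RepM and 23 of 83 for RepN, and they held 44 of the 46 cells with 100 or more thinned reads of Krt79. Within them a read of Krt79 was found in 11 of 11, 6 of 6, 23 of 29 and 21 of 23 cells, and the mean levels given above overlapped between the groups, with RepI highest and RepN lowest. Infundibular-like cells were thus fewer in both 38w replicates, as were cells with Krt79. So were sebocyte-like cells, at 2 of 70 cells in RepI and 8 of 75 for RepL, against 17 of 82 for RepM and 15 of 83 for RepN. The part of either cluster in the share of cells with Krt79 was not tested. The clusters were made without correction for plate. Cluster 0 (40 of 41 cells from C114) and cluster 2 (34 of 49 from C119) came mostly from 38w plates. The part of this in the cell numbers was not tested.

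The genes whose thinned levels ran most like each keratin were ranked by the mean of the Spearman correlations over the 5 plates, among 4075 genes, where the median gene was at 0.019 for Krt79, 0.016 for Krt17 and 0.015 for Krt6a. For Krt79 they were Skint3, a member of a family that acts on epidermal T cells, at 0.698 (0.55 to 0.83 over the plates), Sdr16c6, a short-chain dehydrogenase, at 0.695, Cst6, a cystatin protease inhibitor of the cornifying layer, at 0.651, Ehf, an epithelial ETS factor, at 0.637, and Ly6g6c at 0.618. For Krt17 they included Spink5, the inhibitor of skin kallikreins, at 0.603 (0.48 to 0.70), Cst6 at 0.596, Skint3 at 0.555 and Ano9 at 0.554. For Krt6a they were Anxa1 at 0.326 (0.16 to 0.54), Krt17 at 0.314, B2m, the light chain of MHC class I, at 0.314, Ctnnb1, beta-catenin, at 0.293 and Mindy3 at 0.290. Plate C118 weighed as much as each other plate, though of its 17 thinned cells 1 had Krt79, 3 had Krt17 and 4 had Krt6a. Skint3 and Ano9 for Krt17, and Krt17, B2m, Ctnnb1 and Mindy3 for Krt6a, were highest on C118, unlike the others named. Over the plates Ano9 ran from 0.19 to 0.84, Ctnnb1 from -0.02 to 0.60 and Mindy3 from 0.05 to 0.70. Cst6 and Skint3 stood in the lists of both Krt79 and Krt17. Krt17 ranked 16th for Krt79 (0.529) and Krt79 8th for Krt17, while Krt6a ranked 1745th for Krt79 (0.038) and Krt17 ranked 2nd for Krt6a. None of the 4075 genes ran with Krt6a as closely as those named for each of the other two ran with them. Krt6a counts were low, with 1 to 9 thinned reads in 51 cells and 10 to 99 in 34. The part of this in its correlations was not tested.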

How the data were processed

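Single cells were sorted into 96-well plates and read by a modified Smart-seq2 protocol (75-base single-end reads, no molecular identifiers, so intervals and zero limits cover counting error only). The authors estimated reads with Salmon 0.13.1, and the deposited values are estimated counts per gene and cell, unscaled, of which 3.60% are not whole. The submitters' processing notes name mm10 and GRCm38, R 4.0.3 and Seurat. Each column was taken as 1 cell, and doublets were not called. On plate C114, 13 columns carry the suffix IDTILL, and most of them name a well that another column also names. Whether such pairs come from the same well or cell was not tested. All columns were kept except where cells with a suffix were left out.

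Replicate sums of the counts were rounded and passed to edgeR 4.0.16 (R 4.3.3; quasi-likelihood test, TMM, filterByExpr, Benjamini-Hochberg adjustment, threshold 0.05), with DESeq2 1.42.0 as an alternative. Depth was 5472070 to 12946742 reads per replicate. The study's methods describe independent experiments with several biological replicates each, but the labels do not tie RepI, RepL, RepM and RepN to mice, so p-values measure the spread between these samples, part of which may be technical. Shares of cells used cells thinned to 20000 reads (277 of 310, with 7 cells of 38w and 26 of 38wUW below that depth), Wilson 95% intervals, a limit of 3 counts for a share of 0, and an exact permutation test over the 4 replicates. Clusters came from scanpy 1.11.5 (Leiden resolution 1 on 15 neighbours in 20 principal components of 2000 variable genes), with no correction for plate. A cluster was named where 3 or more markers of a class were raised (log2 fold of 0.5, 25% of cells) and its top 10 genes held at least 1 of them and no more of another class. Sequences, gene models and transcript lengths are from GENCODE M21, and coding sequences were aligned with biotite 1.4.0. The fits were checked on simulated counts.

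The 3 genes were given, and the keratins Krt5, Krt14, Krt15, Krt16, Krt6b and Krt75 were to be named whatever their values, the 5 closest genes by rank, and lists as wholes. The members and lists were chosen with earlier results of these data known. Other settings were another size factor, tool, filter, thinning depth, draw and read minimum, each replicate or RepI plate left out, plates as units with and without a batch block, stricter cells (at least 2500 genes and at most 30% mitochondrial reads, 226 cells), and cells whose name has a suffix left out (15, of which 2 carry MBULK). Of the genes ranked closest to Krt17, 1 is not reported here.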

Additional observations from a re-analysis of the deposited data

How the results depend on the processing

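The shares of cells kept their direction in 95 of 98 recomputed values. Those of Krt79 (-27.4 to -13.1 points) and Krt17 (-41.5 to -14.2) and of the 4 combinations were below 0 under each of the 14 alternatives run for each (-24.3 to -9.94 for Krt79 with Krt17, -14.6 to -3.74 for Krt79 with Krt6a, -14.6 to -2.84 for Krt17 with Krt6a and -13.7 to -3.79 for all 3), and that of Krt6a reversed at 10000 reads (4.21 points), with at least 5 reads (5.42) and without RepL (2.20). Leaving out a replicate gave -20.3 to -16.7 points for Krt79, -36.0 to -19.0 for Krt17 and -5.91 to 2.20 for Krt6a.

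Of the log2 fold changes, 42 of 48 kept their direction, and no alternative called a member. Leaving out a replicate moved Krt79 from -2.02 to 0.59 (it was 0.47 without RepM), Krt17 from -1.32 to 2.14 and Krt6a from 0.39 to 1.18. Without plate C118 Krt79 was at 0.12, and without C114 Krt17 was at -1.36. With plates as units and the batch tag as a block, Krt79, Krt17 and Krt6a were at -0.93, 0.54 and 0.74. With the alternative tag as a block Krt17 was at -0.36. The cause was not tested. The batch tags number plates and do not say that plates share a day or animal, and each pairs too few plates to be checked, so the block was not the main design. It changed no call of a member.

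The number of genes called, 0 by edgeR, was 68 by DESeq2 (30 higher and 38 lower in 38w), 1 without the low-count filter, 1 with the batch block and 4 with the alternative block. Leaving out a replicate gave 0 to 1215 genes, with 169 without RepI and 1215 without RepL, where the remaining replicate of 38w is assumed to vary like those of 38wUW.

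The clusters were also made at Leiden resolutions 0.6 and 1.5, chosen after the data were seen. At 1.5 the infundibular-like cluster held 18 cells, with Krt17 in 100% and Krt6a in 55.6%, and at 0.6 the sebocyte-like cluster held 97 cells, with Krt6a in 28.9%, so the low Krt6a share of sebocyte-like cells depends on the finer clusters. The order of clusters by Krt79 and Krt17 also depends on the resolution. With 2 replicates a group, the exact test cannot pass 0.05, and the spread between RepI and RepL limits the fold changes.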
